A study of Mus musculus with 8 samples.

Results

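The kappa V (Vk) genes nearest the kappa J (Jk) genes were described in bone marrow cells of control and Setd2 knockout mice, sorted by pro-B cell markers. Members were chosen by name alone: a mouse Vk gene carries its family number, then a position number that counts from the Jk end of the locus, and those with a position number of 48 or lower were taken. In names with a second hyphen, such as IGKV8-23-1, the position is the number after the first hyphen. Of 135 light-chain V genes with reads, 133 were kappa and 50 were near Vk genes, which held 104981 of 326657 light V reads. They lie on chromosome 6 between 18.4 and 995 kb from IGKJ1, by the coordinates in the deposited files, while the farthest Vk gene of the locus lies 3166 kb away.

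Poly-A RNA of 8 samples was sequenced, 4 from controls and 4 from knockouts, all primary cells of untreated mice aged 8 weeks and all from 1 sequencing batch by label. The sort took bone marrow cells with B220 and Cd43 on their surface that lacked IgM and CD25, the marker set of the pro-B stage. The sources used here do not give how, or in which cells, Setd2 was deleted. Loss of the Setd2 transcript was not analysed here. Replicate numbers are not tied to animals in the labels, so p-values speak only of the spread among the samples, part of which may be technical.

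A kappa light chain is made by joining 1 Vk gene to 1 Jk gene in the DNA. A Vk gene on the same strand as the Jk genes joins by deleting the DNA in between. A gene on the other strand joins by inversion, which keeps the intervening genes on the chromosome in reversed orientation. Because upstream Vk genes and downstream Jk genes remain after a first joining, a locus can be rearranged again, and secondary joins reach Jk genes farther downstream. The CDR3 spans the V to J junction, and its first bases come from the end of the Vk gene. Setd2 encodes the methyltransferase that trimethylates lysine 36 of histone H3. Kappa joining belongs mainly to the stage after the pro-B cell, while class-switched constant regions and mutated V genes mark mature B cells and plasma cells.

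The near Vk genes fell into 5 well-used families and 3 single genes. IGKV3 had 13 members, IGKV8 13, IGKV6 9, IGKV5 6 and IGKV12 6, and IGKV1, IGKV7 and IGKV18 had 1 each. The GENCODE M21 annotation named 49 of the 50, of which 40 were V genes and 9 were pseudogenes. Pseudogenes took 0.245% of near Vk reads. IGKV8-23-1 had no entry. On the strand of the Jk genes lay 16 members, namely IGKV3-1 to IGKV3-12, IGKV6-17, IGKV8-18, IGKV6-25 and IGKV8-26. The other 33 annotated members lay on the opposite strand.

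The germline CDR3 starts of the members show how far reads and CDR3 sequences can tell them apart. Each sequence below begins at the conserved cysteine codon and runs to the 3′ end of the gene's V segment, from the GENCODE M21 transcripts. The 12 shown are those the results turn on, ordered by position on the locus.
IGKV3-2: tgtcagcaaagtaaggaggttcctcc
IGKV3-4: tgtcagcaaagtaatgaggatcctcc
IGKV3-5: tgtcagcaaagtaatgaggatcctcc
IGKV3-10: tgtcagcaaaataatgaggatcctcc
IGKV6-15: tgtcagcaatataacagctatcctct
IGKV6-23: tgtcagcaatatagcagctatcctct
IGKV6-25: tgtcagcaacattatagcactcctcc
IGKV8-30: tgtcagcaatattatagctatcctcc
IGKV12-41: tgtcaacatttttggagtactcctcc
IGKV12-44: tgtcaacatcattatggtactcctcc
IGKV12-46: tgtcaacatttttggggtactcctcc
IGKV5-48: tgtcaacaaagtaatagctggccaac

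IGKV3-4 and IGKV3-5 shared their first 24 bases, as did IGKV5-43 with IGKV5-45 and IGKV8-24 with IGKV6-25. Those 6 genes could not be told apart from this stretch. Some V genes are close copies of one another, and an aligner may split reads among such copies, which leaves single-gene values uncertain to that extent.

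Light V reads numbered 39816 to 57300 per control and 2085 to 75449 per knockout, with knockout 3 lowest. Near Vk reads numbered 15593 to 23952 per control and 1055 to 10652 per knockout. IGKC, the kappa constant region of cells past the pro-B stage, took 43.2% to 50.6% of light locus reads over all samples. Switched constant regions (IGHG, IGHA and IGHE together) ranged over 51.0% to 57.6% of the reads on heavy constant regions among controls and 6.69% to 44.2% among knockouts, and IGHG alone over 20.8% to 35.5% and 2.66% to 14.9%. In every sample 4 IGHG genes had reads. Switched regions mark mature B cells and plasma cells, so the immunoglobulin reads cannot be taken as those of pro-B cells alone. The switched and IGHG shares did not overlap between the groups. The IGHA share did, at 17.1% to 33.3% in controls and 4.02% to 34.1% in knockouts, with knockout 4 above every control. The IGHD share overlapped as well, at 0.651% to 0.977% and 0.467% to 0.759%. The IGHM share did not overlap, with 55.4% or more in every knockout and less in every control. The part of these shares in each difference below was not tested. In bulk RNA, fewer cells that use a gene and less RNA per cell cannot be told apart.

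The near Vk genes were a large part of the light chains of both genotypes, with a wide spread among knockouts. Controls 1 to 4 had 41.7%, 36.3%, 39.2% and 42.3% of their light V reads on near genes. Knockouts 1 to 4 had 38.7%, 32.3%, 50.6% and 9.06%. The groups overlapped, and knockout 4 stood far below all other samples. The means were 39.9% ± 2.76 and 32.7% ± 17.5 (SD, n = 4; two-sided exact permutation p = 0.571). Without knockout 4 the difference turned from -7.18 to 0.688 percentage points. Per 1000 IGKC reads, near Vk reads numbered 371, 367, 384 and 446 in controls 1 to 4. Knockouts 1 to 4 had 342, 293, 375 and 109, of which only knockout 3 lay inside the control range. In knockout 4, the middle Vk genes (position numbers 49 to 92) held 45.9% of light V reads, and a single gene outside the near set, IGKV1-110, held 20.6%. Over all samples the middle genes held 16.4% ± 2.73 in controls and 22.7% ± 15.5 in knockouts, and the far genes (position numbers of 93 and higher) 39.3% ± 1.88 and 38.3% ± 7.88.

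Within the near set, the knockouts spread their reads over fewer genes. Evenness was measured as the effective number of near Vk genes, the exponential of the Shannon entropy of their reads. It was 24.2, 25.7, 23.9 and 23.6 in the controls. In the knockouts it was 10.1, 18.2, 18.5 and 15.7, so that every knockout lay below every control. The means were 24.4 ± 0.944 and 15.6 ± 3.89 genes (SD, n = 4; exact permutation p = 0.0286, the smallest the design allows). Drawn down to 1055 near Vk reads per sample, the controls spanned 23.1 to 25.2 and the knockouts 9.95 to 18.5. The effective number was not computed for the middle or far genes, so the lower evenness was not shown to be particular to the near set. The most-read middle gene held 1.24% to 2.20% of light V reads in controls and 2.97% to 19.7% in knockouts. For the most-read far gene the ranges were 6.59% to 9.93% and 6.28% to 20.6%, which overlapped. In all, 18 readouts were compared by this test, and over them the Benjamini-Hochberg adjusted value of each p of 0.0286 was 0.0735, so none passed at 0.05 after adjustment.

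The genes that carried the concentration differed between knockouts. The 3 most-read members held 23.3% to 28.6% of near Vk reads in controls and 34.9% to 64.3% in knockouts. Knockout 1 was led by IGKV12-41, IGKV12-44 and IGKV5-48, with 29.0%, 21.9% and 13.4% of its near Vk reads. Knockout 2 was led by IGKV8-30, IGKV6-15 and IGKV8-16, and knockout 3 by IGKV8-30, IGKV8-21 and IGKV5-43. Knockout 4 was led by IGKV6-23, IGKV12-46 and IGKV8-30. IGKV8-30 was among the 3 leading genes of 3 controls and 3 knockouts.

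**Figure D1:**
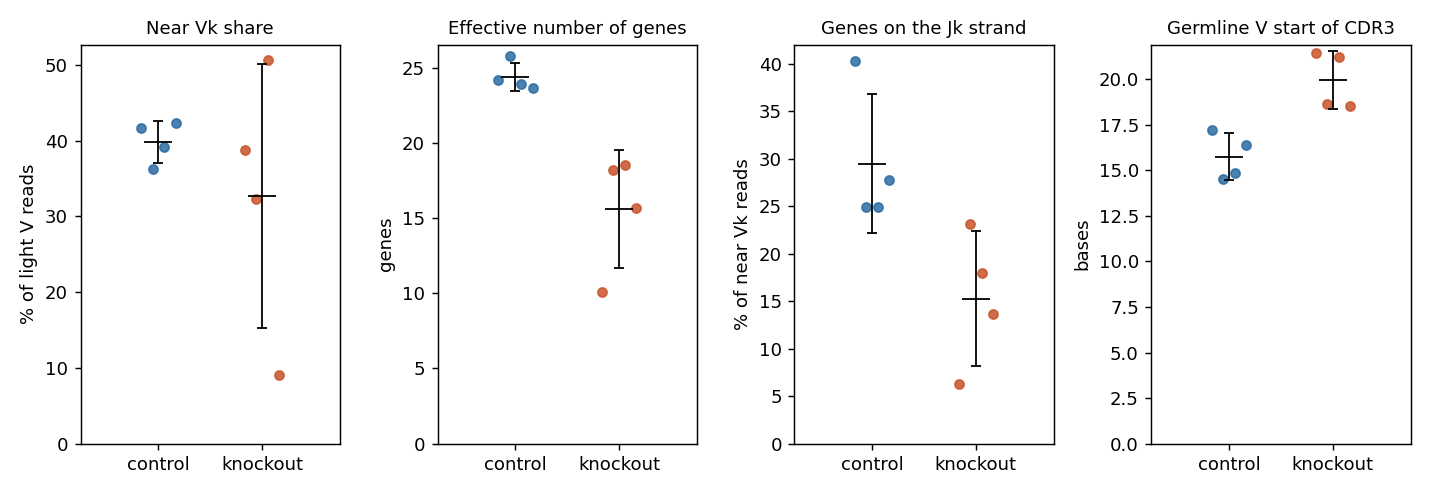
Per-sample values of 4 near Vk readouts in control (blue) and knockout (orange) samples; points are samples, black bars are the mean and SD (n = 4 per group), and each panel's vertical axis starts at 0. The groups overlap for the near Vk share of light V reads (%), and do not overlap for the effective number of genes, the share of near Vk reads on genes of the Jk strand (%) and the number of germline V bases at the start of the CDR3.

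IGKV3, the family closest to the Jk genes, had a lower read share in the knockouts. In controls 1 to 4 it held 12.47%, 5.94%, 6.45% and 7.76% of light V reads. Knockouts 1 to 4 had 1.51%, 4.28%, 5.32% and 0.447%. No knockout reached the lowest control. The means were 8.15% ± 2.98 and 2.89% ± 2.29 (SD, n = 4; exact permutation p = 0.0286, and 0.0571 without control 1, control 4, knockout 1 or knockout 4).

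IGKV6, the most-read near family of the controls, held 14.2%, 12.3%, 14.5% and 11.6% in controls and 5.02%, 8.79%, 13.7% and 3.30% in knockouts. Knockout 3 lay inside the control range and the others below it. The means of 13.1% ± 1.42 and 7.69% ± 4.60 (SD, n = 4) had an exact permutation p of 0.0857, which was 0.0286 without knockout 3. As log2 reads per 1000 IGKC reads the difference was -1.06 (exact permutation p = 0.0286). IGKV12 lay at 4.15%, 4.77%, 4.74% and 8.90% in controls and 23.3%, 5.73%, 7.72% and 2.56% in knockouts. Knockout 1 stood apart, and without it the difference of 4.18 percentage points turned to -0.301 (exact permutation p = 0.600 with all samples). IGKV8 (6.96% ± 0.554 and 7.19% ± 6.28, exact permutation p = 0.971) and IGKV5 (5.98% ± 0.947 and 5.08% ± 4.35, exact permutation p = 0.714) overlapped between the groups (SD, n = 4). For both families the knockouts fell on either side of the control range.

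Single members were compared with edgeR's quasi-likelihood test over all light V genes with at least 10 counts, 113 in all, of which 44 were near Vk genes. No near Vk gene passed an adjusted p of 0.05 (Benjamini-Hochberg), and the background called was 0.0% of the 113. At an unadjusted p under 0.05, 9 of 44 were lower and 2 of 44 higher in the knockouts in edgeR, beside a background of 15.9% lower and 2.65% higher. With TMM scaling 6 of 44 were lower and 3 higher at that p, beside 11 and 15 of the 113, and in DESeq2 5 and 3, beside 9 and 15. DESeq2 called 3 near Vk genes at an adjusted p of 0.05, IGKV8-16 and IGKV8-23-1 as higher and IGKV8-34 as lower, against a background of 5.31% higher and 2.65% lower. Of the 44, 35 had a log2 fold change below 0, where the background was 65.5%. Their median was -1.08, and that of all light V genes tested was -0.64. With the TMM scaling of edgeR the near median was -0.26 and that of all light V genes 0.15, and in DESeq2 they were -0.16 and 0.21, so each direction below is relative to the scaling by total light V reads.

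In 10 of the 44 tested members every knockout share lay below every control share, where the background was 19.5%, and in 0 of 44 every knockout lay above, where it was 0.885%. The 10 were IGKV3-1, IGKV3-4, IGKV3-6, IGKV3-8, IGKV3-10, IGKV6-13, IGKV6-23, IGKV8-19, IGKV8-26 and IGKV8-34. The other 6 members had too few reads to be tested. Of the 44, 7 had fewer than 10 reads over the knockouts and reached the minimum through the controls alone (IGKV3-6, IGKV3-8, IGKV7-33, IGKV8-18, IGKV8-26, IGKV8-31 and IGKV8-34), while 0 reached it through the knockouts alone. Being low in the knockouts is largely what such a passage requires, and 4 of the 10 are among them, so the counts over tested members are a description. In IGKV3-1, IGKV3-6, IGKV3-8, IGKV8-26 and IGKV8-34, at least 1 knockout had 0 reads at a depth that allows a share above the lowest control, and their separation was not resolved at this depth.

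All 12 tested IGKV3 genes, 2 of which had fewer than 10 knockout reads, had a log2 fold change below 0, with a median of -1.39, while none passed the adjusted edgeR threshold. Under TMM scaling 10 of the 12 and in DESeq2 11 of the 12 were below 0. IGKV3-4 (chr6:70671789-70672377, 50.2 kb from IGKJ1) held 2.44%, 1.38%, 1.08% and 0.481% of light V reads in controls and 0.109%, 0.308%, 0.384% and 0.125% in knockouts. The groups did not overlap (log2 fold change -2.59, SE 0.81, edgeR adjusted p = 0.107). IGKV3-5, with the same germline CDR3 start, held 1.99%, 0.763%, 0.349% and 2.20% in controls and 0.0691%, 1.32%, 0.480% and 0.0570% in knockouts, and its groups overlapped.

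IGKV3-10, 149 kb from IGKJ1, held 2.63%, 1.01%, 0.796% and 1.18% in controls and 0.127%, 0.774%, 0.576% and 0.0133% in knockouts, again with no overlap (log2 fold change -1.95, SE 1.02, edgeR adjusted p = 0.320). IGKV3-2, 23.5 kb from IGKJ1, was the most-read IGKV3 gene of the controls, at 2.36%, 1.52%, 1.27% and 1.61%. Its knockouts lay at 0.404%, 0.286%, 2.45% and 0.0172%, so knockout 3 was above every control and the other 3 below (log2 fold change -1.16, SE 1.05, edgeR adjusted p = 0.528). IGKV3-1, the gene nearest the Jk genes, held 0.0929% to 0.283% in controls and 0% to 0.0691% in knockouts (edgeR adjusted p = 0.248). The 0 was that of knockout 3, whose depth allows a share of up to 0.144%, above the lowest control. IGKV3-8, annotated as a pseudogene, had 0.00502% to 0.0106% in controls and 0 reads in every knockout. At the knockouts' depths a count of 0 allows shares of up to 0.00398% to 0.144%, so only in knockout 4, the deepest sample, does this limit lie below every control. The medians given here are the same with IGKV3-8 set to the bound that 3 reads over the knockouts allow.

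IGKV6 members shared the direction of their family: 9 of 9 had a log2 fold change below 0, with a median of -0.89 and none called by edgeR. With TMM 6 of 9 and in DESeq2 5 of 9 were below 0. IGKV6-15 held 3.39%, 3.41%, 3.67% and 2.86% in controls, the highest mean of any near gene, and 1.45%, 3.90%, 4.89% and 0.103% in knockouts. Its knockouts lay on both sides of the controls, and the log2 fold change of -0.37 (SE 0.83) was 0.15 in DESeq2. IGKV6-23 held 3.32%, 1.95%, 3.59% and 2.08% in controls and 1.01%, 0.748%, 1.73% and 1.92% in knockouts. Every knockout was below every control, knockout 4 narrowly (log2 fold change -1.02, SE 0.59, edgeR adjusted p = 0.353), and the sign turned under both other scalings. IGKV6-13 held 0.542% to 0.924% in controls and 0.0146% to 0.480% in knockouts (log2 fold change -2.15, SE 0.97, edgeR adjusted p = 0.248). IGKV6-17 and IGKV6-25 lie on the Jk strand and had control means of 1.87% ± 0.258 and 1.68% ± 0.293 and knockout means of 1.12% ± 0.933 and 0.914% ± 0.522 (SD, n = 4), with overlap in both.

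The IGKV8 genes differed from one another, with 8 of 12 below 0 under each of the 3 scalings. Among them, IGKV8-18, IGKV8-26, IGKV8-31 and IGKV8-34 had fewer than 10 reads over the knockouts and reached the minimum through the controls alone. IGKV8-34, a gene of low use, held 0.0202%, 0.0454%, 0.161% and 0.170% in controls and 0.00727%, 0%, 0% and 0.00133% in knockouts, and had the lowest p among the members (log2 fold change -5.10, SE 1.27, edgeR adjusted p = 0.0844). These values rest on 195 control reads and 3 knockout reads. IGKV8-19 held 0.243%, 0.405%, 0.452% and 1.54% in controls and 0.0582%, 0.158%, 0.144% and 0.138% in knockouts, with no overlap (log2 fold change -2.42, SE 0.86, edgeR adjusted p = 0.143). IGKV8-28, IGKV8-26 and IGKV8-18 had control means of 0.496%, 0.0349% and 0.0905% and knockout means of 0.0505%, 0.000909% and 0.00818%.

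The 2 members with a higher unadjusted edgeR value rested on knockout 2. IGKV8-16 held 0.103%, 0.0349%, 0.0879% and 0.104% in controls and 0.00727%, 2.87%, 0.0480% and 0.244% in knockouts. IGKV8-23-1 held 0.0562%, 0.0332%, 0.0527% and 0.0760% in controls and 0%, 1.996%, 0.0480% and 0.175% in knockouts. Both were high in knockout 2, above the controls in knockout 4 and inside or below the control range in knockouts 1 and 3. All 90 clonotypes that listed either of these genes listed both, so the assembled sequences did not tell them apart and they may be 1 signal. Without knockout 2 the log2 fold changes of 3.28 and 3.37 became 0.39 and 0.55. IGKV8-30 was read at 3.01%, 3.64%, 3.95% and 2.59% in controls and 0.498%, 5.14%, 7.24% and 0.799% in knockouts, 2 below and 2 above all controls.

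Among the members far from the Jk genes, IGKV12-41 and IGKV12-44 reached the highest share of any member in a single sample, both in knockout 1. IGKV12-41, 864 kb from IGKJ1, held 0.652% to 1.22% in controls and 11.2%, 0.898%, 1.34% and 0.192% in knockouts. IGKV12-44 held 1.66%, 1.57%, 2.26% and 5.35% in controls and 8.49%, 2.83%, 4.36% and 0.771% in knockouts, and IGKV12-46 1.31% to 2.53% and 1.502% to 3.01%. The log2 fold changes were 1.82 (SE 0.99), 0.60 (SE 0.73) and 0.20 (SE 0.56), and none passed the edgeR test. IGKV5-43 lay at 1.45% to 3.30% in controls and at 0.880%, 0.316%, 5.13% and 0.175% in knockouts, and IGKV5-39 at 0.353% to 3.0% and 0.106% to 2.21%.

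At the position limit, IGKV5-48 held 2.26%, 0.988%, 0.799% and 1.51% in controls and 5.19%, 0.423%, 0.480% and 0.194% in knockouts, while IGKV12-47 was at or below 0.00449% everywhere. Just outside the limit, IGKV12-49 was at or below 0.00502% and IGKV4-50 held 0.0471% to 0.558% in controls and 0% to 0.360% in knockouts.

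**Figure D2:**
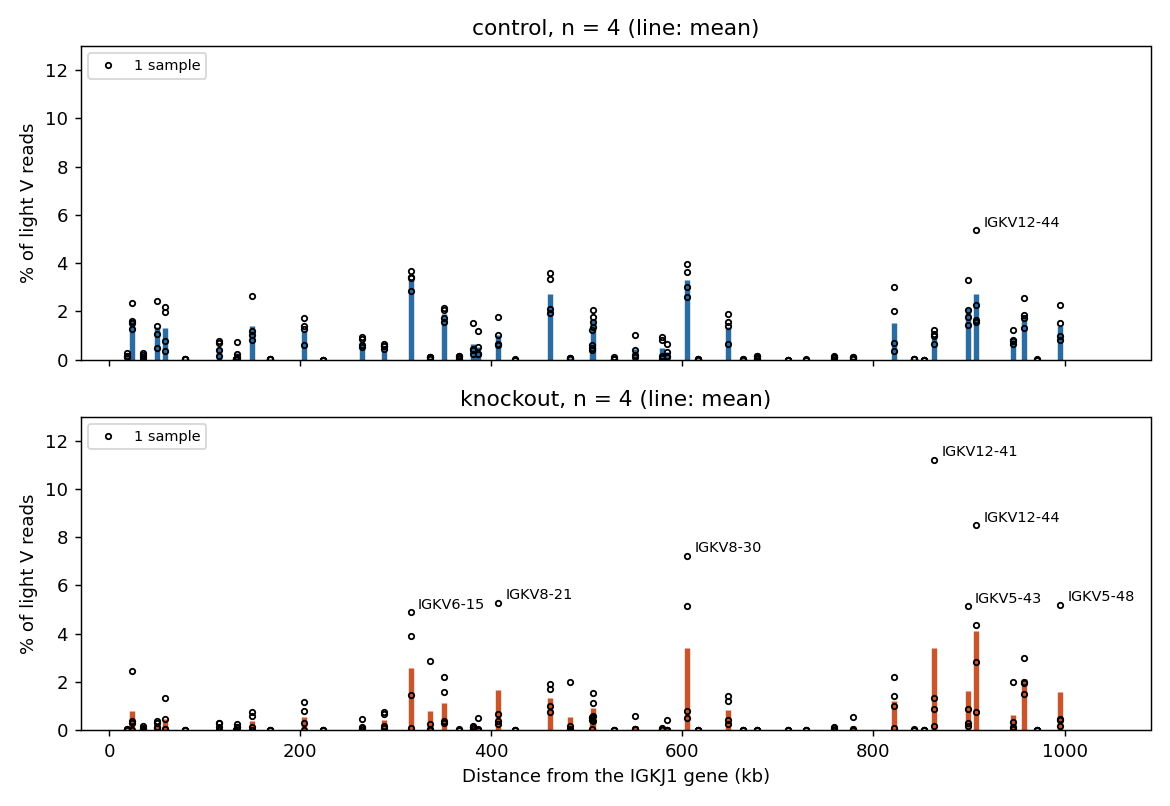
Share of light V reads (%) of each near Vk gene against its distance from IGKJ1 (kb), controls above and knockouts below; coloured lines are means over 4 samples and open circles are single samples, and the genes with the highest values are named. In controls no gene passed 5.35%, whereas IGKV12-41 and IGKV12-44 reached 11.2% and 8.49% in knockout 1 and the genes nearest IGKJ1 were low in most knockouts.

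Members on the strand of the Jk genes, which join by deletion, took a smaller part of near Vk reads in the knockouts. Their share was 40.3%, 25.0%, 24.9% and 27.8% in controls and 6.32%, 23.1%, 17.9% and 13.7% in knockouts. Controls 2 and 3 lay just above knockout 2, and the groups did not overlap. The means were 29.5% ± 7.33 and 15.3% ± 7.11 (SD, n = 4; exact permutation p = 0.0286, and 0.0571 without any one of the controls). All 16 of these genes were tested, 4 of them with fewer than 10 knockout reads, and all 16 had a log2 fold change below 0, with a median of -1.39, against 19 of 27 tested genes of the other strand (3 with fewer than 10 knockout reads), with a median of -0.51. With TMM the counts below 0 were 14 of 16 and 14 of 27, and in DESeq2 15 of 16 and 12 of 27. Of the 16, 12 are IGKV3 genes, so strand, family and closeness to the Jk genes cannot be told apart for them. Outside IGKV3, the Jk strand held IGKV6-17, IGKV6-25, IGKV8-18 and IGKV8-26. The light V shares of IGKV6-17, IGKV6-25 and IGKV8-18 overlapped between the groups. IGKV8-26 did not overlap but rests on 66 control reads and 1 knockout read. The Jk-strand share without IGKV3 was not computed, so a difference by strand was not shown outside that family. Over the 44 tested members, the log2 fold change and the distance from IGKJ1 had a Pearson r of 0.288 and a Spearman rho of 0.456. These describe genes of the same 8 libraries, which share depth and scaling and are not independent.

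**Figure D3:**
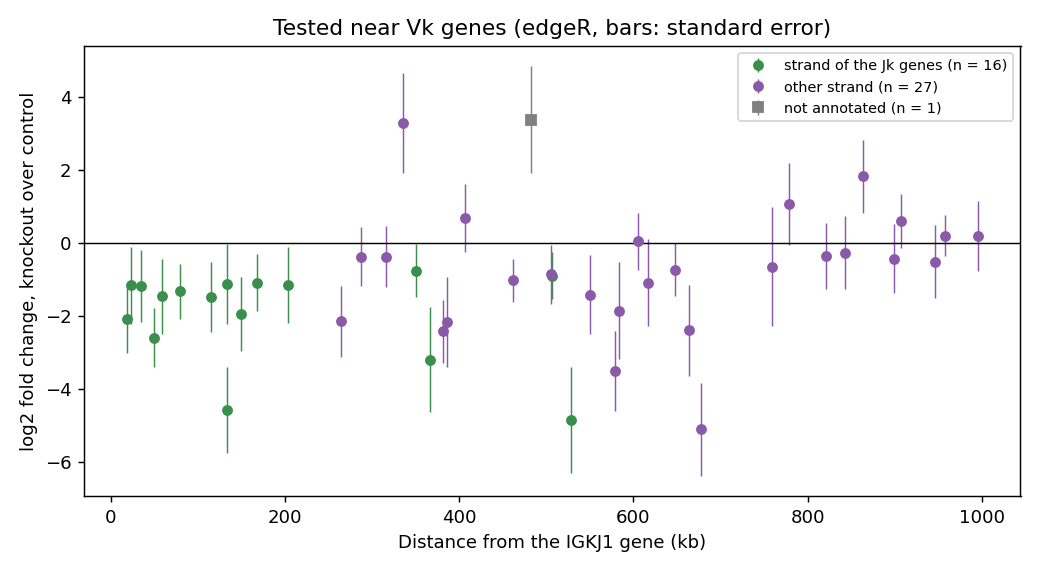
log2 fold change of knockout over control (edgeR, bars are standard errors) against the distance from IGKJ1 (kb) for the 44 tested near Vk genes, coloured by strand. All 16 genes on the Jk strand lie below 0 with this scaling by total light V reads (14 with TMM, 15 in DESeq2); the value of IGKV3-8 rests on knockouts without a read and is not a measured fold.

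The assembled CDR3 sequences gave a second view of the same genes that does not weigh a gene by its reads. A clonotype is here a distinct complete CDR3 nucleotide sequence of a sample. Of 3130 complete light-chain clonotypes over the 8 samples, 864 listed near Vk genes only, 720 in controls and 144 in knockouts. A single V gene was listed by 441 of the 864, and 40 of the 50 members were listed by at least 1. The most frequent single listings were IGKV6-15 with 86 clonotypes, IGKV5-48 with 74, IGKV6-25 with 45, IGKV8-30 with 43 and IGKV12-46 with 33. IGKV6-15 was listed alone by 76 control and 10 knockout clonotypes and IGKV12-46 by 20 and 13.

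Near Vk clonotypes made up 32.4%, 35.6%, 36.5% and 33.9% of kappa clonotypes in controls and 33.9%, 23.6%, 38.7% and 24.3% in knockouts. Knockouts 2 and 4 lay below the controls and knockout 3 above them. The means were 34.6% ± 1.82 and 30.1% ± 7.41 (SD, n = 4; exact permutation p = 0.343). The difference of -4.51 percentage points was -2.34 without knockout 2, -2.55 without knockout 4 and -7.37 without knockout 3 (exact permutation p = 0.0571), and -1.75 when V names without a position number were ignored.

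By family, IGKV12 clonotypes were more frequent and IGKV6 clonotypes less frequent in the knockouts. IGKV12 alone was listed by 6.21%, 5.29%, 4.68% and 6.12% of near Vk clonotypes in controls and 24.4%, 16.7%, 8.33% and 12.2% in knockouts. No knockout fell into the control range (means 5.57% ± 0.727 and 15.4% ± 6.89, SD, n = 4; exact permutation p = 0.0286, and 0.0571 without any one of the controls). IGKV6 alone was listed by 28.3%, 28.8%, 25.1% and 27.6% in controls and 9.76%, 23.3%, 25.0% and 12.2% in knockouts. All knockouts lay below the controls, knockout 3 narrowly (means 27.5% ± 1.63 and 17.6% ± 7.70, SD, n = 4; exact permutation p = 0.0286, and 0.0857 to 0.114 without any one of the controls).

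These shares rest on few sequences in the knockouts, 23 IGKV12 and 23 IGKV6 clonotypes over the 4 samples, against 40 and 198 in the controls. IGKV3 alone was listed by 20%, 8.65%, 14.0% and 13.8% in controls and 12.2%, 16.7%, 8.33% and 10.2% in knockouts, so the groups overlapped here although they did not by reads (exact permutation p = 0.457). IGKV5 (exact permutation p = 0.971) and IGKV8 (exact permutation p = 0.343) overlapped as well. Clonotypes listing several families made up 27.5% ± 3.63 in controls and 28.4% ± 11.1 in knockouts (SD, n = 4). Family shares follow the listed V names, and how often a listed gene is not the one joined was not determined. Among control clonotypes, 6 listed only IGKV3-8, which is annotated as a pseudogene, and no knockout clonotype did.

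**Figure D4:**
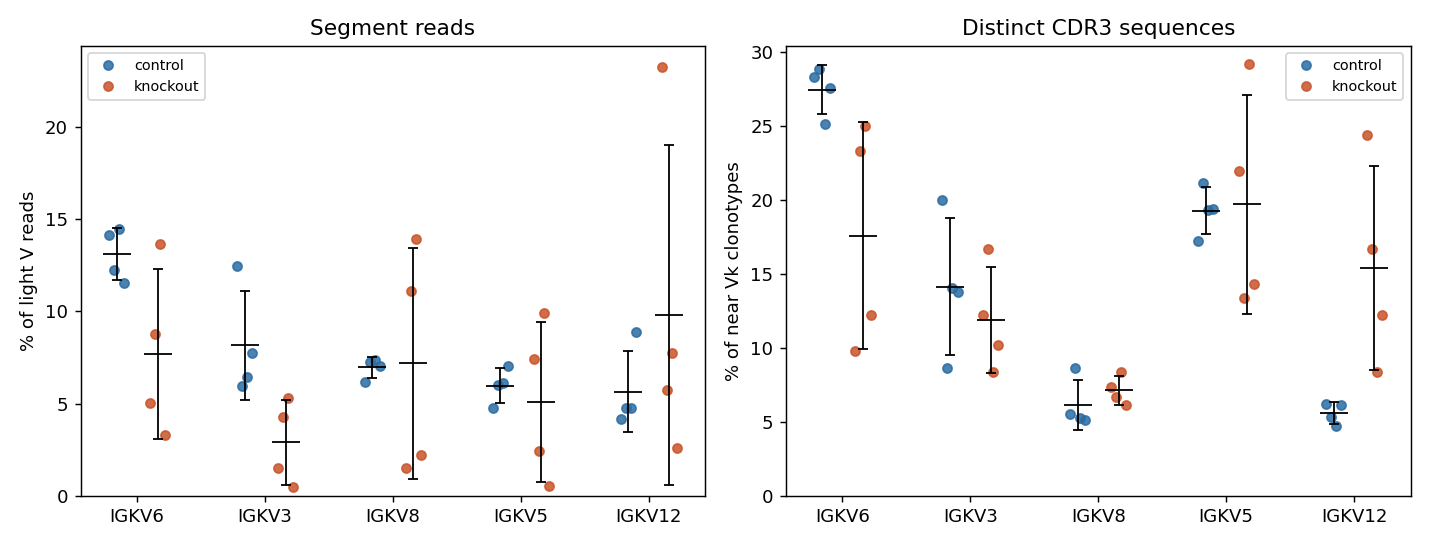
Near Vk families in control (blue) and knockout (orange) samples, as share of light V reads (%, left) and as share of near Vk clonotypes whose listed genes all belong to the family (%, right); points are samples and black bars the mean and SD (n = 4 per group). Knockouts lie below all controls for IGKV3 by reads and IGKV6 by clonotypes, and above all controls for IGKV12 by clonotypes.

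The start of the CDR3 of near Vk clonotypes followed the germline gene for longer in the knockouts. The uninterrupted match to a listed gene's germline CDR3 start, counted from the cysteine codon, averaged 17.2, 14.5, 14.9 and 16.4 bases in controls 1 to 4. It averaged 21.4, 18.6, 21.2 and 18.5 bases in knockouts 1 to 4, all above the highest control. The means were 15.8 ± 1.27 and 19.95 ± 1.59 bases (SD, n = 4; exact permutation p = 0.0286), and the p was 0.0571 when clonotypes with fewer than 2 CDR3-spanning reads were left out. The first 18 bases held no mismatch in 51.0%, 32.2%, 37.4% and 44.4% of near Vk clonotypes in controls and 85.4%, 60%, 83.3% and 61.2% in knockouts, again without overlap. A match also ends early where the listed V gene is not the one joined, and how often this occurred was not determined.

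The longer match was not shown to be particular to the near genes. Middle and far Vk clonotypes matched over 16.7 ± 0.931 bases in controls and 20.01 ± 2.49 in knockouts, and the near minus other difference had an exact permutation p of 0.314 between the groups (SD, n = 4).

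The sequences below show such matches. Bases in capitals equal the germline start of a listed V gene without interruption, and bases in lower case are the remainder. The source of the remainder was not determined. It can follow the listed gene again after a mismatch, as most of the knockout 4 sequence does. Where the match stops early it may also include another V gene than the one listed. The first 2 were each a near Vk clonotype in 4 controls and 2 knockouts, the third in 2 controls and 3 knockouts, although the same sequence occurred in all 8 samples, elsewhere with a V name that has no position number listed as well. The next is the largest near Vk clonotype of knockout 1, and the last are the second clonotype of control 3 and the largest of knockout 4, where the match stopped early. The Jk gene is the one the deposited contigs list.
IGKV6-25 (also listed as IGKV6-13/IGKV6-23/IGKV8-24) with IGKJ5: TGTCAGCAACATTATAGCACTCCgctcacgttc
IGKV8-30 (also listed with other genes) with IGKJ4: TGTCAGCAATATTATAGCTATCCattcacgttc
IGKV12-46 with IGKJ1: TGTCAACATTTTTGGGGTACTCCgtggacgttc
IGKV12-41/IGKV12-44 with IGKJ2, knockout 1: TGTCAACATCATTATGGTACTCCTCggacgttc
IGKV3-10 with IGKJ2, control 3: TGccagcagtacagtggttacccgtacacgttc
IGKV8-30 with IGKJ2, knockout 4: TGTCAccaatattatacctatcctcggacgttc

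In the IGKV12-41/IGKV12-44 and knockout 4 sequences the contig's bases after the CDR3 are those of IGKJ1, not of the listed IGKJ2. The first 3 matched their germline gene over 23 bases. The IGKV12-41/IGKV12-44 sequence of knockout 1 matched over 25 bases, and this match was to IGKV12-44, not to IGKV12-41. That sequence held 14 of the sample's 146 near Vk CDR3-spanning reads, or 9.59%. The IGKV8-30 sequence of knockout 4 matched over 5 bases and held 14 of 152, or 9.21%. The IGKV3-10 sequence of control 3 matched over 2 bases and held 22 of 506, or 4.35%. The same sequence occurred in 4 samples. Of 671 distinct near Vk CDR3 sequences, 97 occurred in 2 or more samples. Mean CDR3 length was 32.9 ± 0.0543 bases in controls and 32.7 ± 0.0285 in knockouts (SD, n = 4; exact permutation p = 0.0286). Weighted by CDR3-spanning reads the difference was -0.197 bases (exact permutation p = 0.0286), and weighted by all reads of the contig it was -0.139 (exact permutation p = 0.257). Over clonotypes counted once it was -0.161 bases, and 83.8% of all near Vk sequences had 33 bases.

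The Jk gene joined to near Vk genes did not separate the groups. IGKJ4 and IGKJ5, the downstream Jk genes, made up 46.5%, 35.6%, 38.0% and 41.5% of near Vk clonotypes with a single Jk gene in controls and 36.6%, 13.3%, 50% and 48.98% in knockouts. The knockouts lay on both sides of the controls (means 40.4% ± 4.72 and 37.2% ± 17.1, SD, n = 4; exact permutation p = 0.857). Knockout 2 was lowest with 4 of 30 clonotypes (95% exact binomial interval 3.76% to 30.7%, which covers counting error only), and without it the difference turned from -3.16 to 4.80 percentage points.

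The listed Jk gene was compared with the contig's own bases after the CDR3, up to 12 of them, against the germline Jk genes. Of 839 near Vk clonotypes whose contig decided a Jk gene, 121 (14.4%) carried another than the one listed. Most of these were between IGKJ1 and IGKJ2, where 63 listed as IGKJ2 read as IGKJ1 and 41 the other way round, and 15 moved between upstream and downstream genes. With the Jk gene taken from the contig, the downstream share was 45.7%, 36.3%, 39.9% and 42.4% in controls and 41.5%, 20%, 50% and 55.3% in knockouts. The groups overlapped as before, and the difference turned to 0.626 percentage points (exact permutation p = 0.971).

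Pooled over samples by the listed gene, IGKJ1, IGKJ2, IGKJ4 and IGKJ5 were joined in 166, 261, 98 and 186 of 711 control clonotypes and in 42, 47, 20 and 35 of 144 knockout clonotypes. By the contig's bases they were 177, 240, 100 and 186 of 703 and 46, 35, 25 and 36 of 142. Near Vk clonotypes used downstream Jk genes more often than other Vk clonotypes in all 4 controls, by 12.2, 9.44, 7.54 and 5.82 percentage points. In knockouts the differences were -2.40, -9.33, 10 and 18.3, in both directions. The means of 8.74 ± 2.73 and 4.15 ± 12.4 percentage points did not differ beyond the spread (SD, n = 4; exact permutation p = 0.514). The difference between the groups, -4.59, was -0.0924 without knockout 2 and -9.32 without knockout 4, and -0.353 with the Jk gene taken from the contig (exact permutation p = 1.0).

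**Figure D5:**
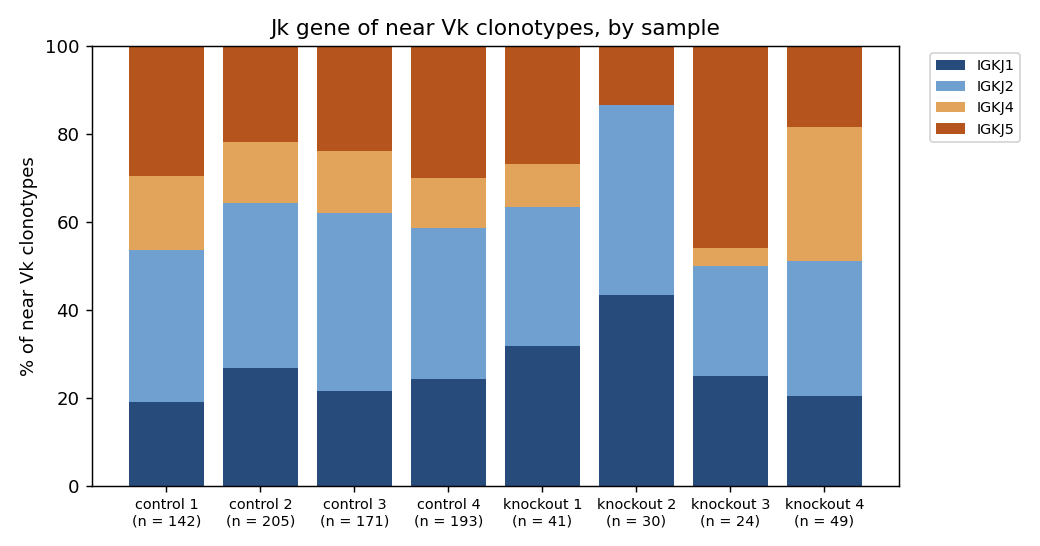
Share (%) of each Jk gene, as the deposited contigs list it, among near Vk clonotypes with a single Jk gene, 1 stacked bar per sample with its number of clonotypes. Downstream genes IGKJ4 and IGKJ5 make up 35.6% to 46.5% in controls and 13.3% to 50% in knockouts, whose bars rest on 24 to 49 clonotypes.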

How the data were processed

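Reads were aligned with STAR 2.5.1 to mm10, per the submitters' processing notes, and immunoglobulin sequences were assembled with TRUST, per the series design text; the TRUST version is not stated in the labels. The deposited count per gene segment and per contig is a whole, unnormalized number of reads, per the file headers. The deposited clonal expression score multiplied by the CDR3 length in bases (at least 39) gave a whole number within 0.01, called CDR3-spanning reads. The depth of the whole libraries is not known.

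Shares are percent of light V reads. Genes with a letter in place of a position number belong to no region. A clonotype counted as near when every listed V gene was near. Coordinates are those of the deposited files; strand, gene type and germline sequence came from GENCODE M21, whose coordinates agreed within 50 bases for 44 of the 50 members. Of the members, 46 had a germline CDR3 start. The listed Jk gene was checked against 8 to 12 contig bases after the CDR3, taking the Jk gene with the fewest mismatches, at most 2.

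Per-sample readouts were tested by a two-sided exact permutation of group means over 70 arrangements, called at p under 0.05 (smallest 0.0286), with Benjamini-Hochberg adjustment over 18 readouts, of which 7 were planned and the family and germline-match readouts were added after seeing the data. Counts were tested with edgeR 4.0.16 in R 4.3.3 on 113 light V genes with at least 10 counts, with total light V reads as library size. On simulated data with 20 genes lowered, it recovered 3% of 4-fold and 45.5% of 16-fold changes and called 0.376% of unchanged genes. Alternatives were DESeq2 1.42.0, TMM, no filter, other position limits and denominators, weighting by reads, each sample left out and a replicate block. Shares, tests and plots were made in Python 3.11.15 with pandas 2.3.3, numpy 2.4.6, scipy 1.17.1 and matplotlib 3.10.9. Named genes were the 12 of lowest p, the 12 of highest control share and 2 on either side of the position limit; IGKV12-41, IGKV3-5 and IGKV8-21 were named after their values were seen. Members and lists were chosen with earlier results of these data known.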

Additional observations from a re-analysis of the deposited data

Results flagged for a closer look

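In 12 of 86 groups of 4 samples examined, 1 sample lay apart from the other 3 by more than Dixon's 95% limit for its share of the range. For normally distributed values chance does this in about 1 in 20 groups. Shares near the floor are not normally distributed and genes of 1 sample are not independent, so 12 of 86 cannot be set against that rate. In knockouts, IGKV8-16 reached 2.87% and IGKV8-23-1 1.996% of light V reads in knockout 2, IGKV5-48 5.19% in knockout 1, and IGKV5-43 5.13% and IGKV3-2 2.45% in knockout 3. In IGKV8-26 (0.00364%), IGKV8-18 (0.0327%), IGKV7-33 (0.00133%) and IGKV12-47 (0.00265%) the sample apart was the only knockout with a read. There the flag was fixed by the absence of reads in the others. In controls, control 4 stood above the others for the IGKV12 family at 8.90% and for IGKV8-19 at 1.54% of light V reads. Control 2 stood above the others for IGKV8 clonotypes, at 8.65% of near Vk clonotypes.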

How the results depend on the processing

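With 1 sample left out, the difference of knockouts minus controls ran from -9.73 to -6.92 for the effective number of genes (permutation p 0.0286 throughout), from -16.9 to -10.6 percentage points for the Jk-strand share, from -13.2 to 0.688 for the near share and from -7.42 to 4.80 for the downstream Jk share. The deviations of same-numbered samples from their group means had correlations of 0.116, -0.0675, 0.122 and 0.0591. Such low values cannot decide whether the numbers pair the samples, which the labels do not say. With the replicate block, sign flips within same-numbered pairs cannot give a p below 0.125, which was the value for the effective number (-8.76), the Jk-strand share (-14.2), CDR3 length (-0.161), and the called family and germline-match readouts, and the edgeR block called 0 near genes. Length weighted by contig reads differed by -0.139 (exact permutation p = 0.257), and weighted by CDR3-spanning reads by -0.197 (exact permutation p = 0.0286). With the Jk gene read from the contig (a setting chosen once the data were seen), the downstream Jk share turned to 0.626. DESeq2 called 3 near and 9 light V genes in place of 0.

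Directions turned in several results that were not called, and the causes were not tested. The IGKV8 share turned to -1.55 without each sample's leading light V gene and to -0.64 as log2 reads per 1000 IGKC reads. With 1 sample left out it ran from -2.03 to 2.12 (negative without control 1, knockout 2 or knockout 3). In the same way the IGKV5 share ran from -2.51 to 0.615 (positive without knockout 4), the IGKV12 share from -0.301 (without knockout 1) to 6.60 and the IGKV5 clonotype share from -2.75 to 2.53 (negative without control 1, knockout 1 or knockout 3).

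Of 285 alternatives over 24 named genes, 265 kept direction and side, 3 came to pass and 17 turned, in 7 genes. By log2 fold change IGKV6-23 turned to 0.15 with TMM and 0.058 in DESeq2, IGKV5-39 to 0.069 and 0.21, and IGKV6-15 to 0.15 in DESeq2. With the replicate block IGKV8-30 turned to -0.72 and IGKV5-48 to -0.94. With 1 sample left out, IGKV6-15 ran from -0.87 to 0.030 (positive without knockout 4), IGKV8-30 from -0.62 to 0.41 (negative without control 4, knockout 2 or knockout 3) and IGKV5-39 from -0.83 to 0.21 (positive without control 4 or knockout 4). IGKV5-48 ran from -1.95 to 0.57 (negative without knockout 1 or control 3), IGKV12-44 from -0.040 to 1.17 and IGKV12-46 from -0.019 to 0.39, both negative without knockout 1. Knockout 3, with 2085 light V reads, sets the weakest limit on absent genes.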
